A study of Mus musculus with 6 samples.

Results

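The D cyclin genes Ccnd1, Ccnd2 and Ccnd3, the PIM kinase genes Pim1, Pim2 and Pim3, the MYC family genes Myc and Mycn, and the cytokine gene Osm were followed in leukaemic mouse pre-B cells that carried floxed Bcor, with and without Cre. They were taken as a list of growth effectors of BCR-ABL1 and STAT5, and each gene was read from the brightest probe set that names it alone. All 9 genes were measured, each by 1 probe set, among 19938 genes in all. The cells were C57Bl/6 pre-B cells transformed by BCR-ABL1, the fusion kinase of Philadelphia chromosome-positive acute lymphoblastic leukaemia (Ph+ ALL), and all of them were Bcor fl/Y, so their only copy of Bcor, on the X chromosome, was floxed. One group of 3 arrays came from cells transduced with PMIP-CRE-ERT2, which carries a Cre recombinase that tamoxifen activates, and the other 3 from cells transduced with PMIP-ERT2, which lacks Cre. Both groups had 2 days of 4OH-Tamoxifen at 0.5 micromolar, and RNA was taken from the cells that resisted puromycin. The labels do not say whether the arrays came from separate cultures or clones, so p-values measure the spread between these samples only, and that spread may be technical.

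D-type cyclins are the regulatory subunits of the kinases CDK4 and CDK6, which phosphorylate the retinoblastoma protein and so release E2F factors at the entry to S phase. PIM kinases are serine/threonine kinases with no inhibitory domain, so their activity follows their abundance, and STAT5 induces their genes in blood cells. MYC and its relative N-MYC are transcription factors that bind DNA with the partner MAX and drive genes of growth and ribosome synthesis. In Ph+ ALL the BCR-ABL1 kinase keeps STAT5 phosphorylated, and BCL6, the repressor that BCOR serves as corepressor, binds a DNA motif much like that of STAT5. Ccnd2 is a known target of repression by BCL6 in B cells.

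The targeted gene Bcor had log2 levels of 9.08, 9.22 and 9.18 on the Cre-ERT2 arrays, against 10.07, 10.11 and 10.17 on the ERT2 arrays. It was lower on every Cre-ERT2 array, at 51.5% of its ERT2 level (log2 fold change -0.96, SE 0.0491, limma adjusted p = 2.11e-05, n = 3 per group), and where its probes lie relative to the floxed part was not examined here. The array medians lay between 8.61 and 8.68 on the log2 scale. Pairwise correlations between arrays across genes ran from 0.996 to 0.999, and no pair of arrays held identical values (0 pairs). The median log2 fold change over all genes was -0.0369, and 68.2% of genes were below 0. The arrays' number limits the precision, and detection calls were not used here.

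Of the 9 genes, 2 rose with Cre-ERT2, both of them D cyclins, and 0 fell. Ccnd1 was 1.51-fold higher and Ccnd2 1.13-fold higher. In such bulk RNA, fewer cells of a type and less RNA per cell cannot be told apart. The other 7, which include all 3 PIM kinase genes, Myc, Mycn, Osm and Ccnd3, did not pass the test, and their log2 fold changes lay between -0.061 and 0.069. Over all genes limma called 7.03% at an adjusted p under 0.05, 4.05% higher and 2.98% lower. Values of the groups did not overlap for 3 of the 9 genes, Ccnd1 and Ccnd2 higher and Ccnd3 lower, against 29.9% of all genes (9.56% higher and 20.3% lower). The median log2 fold change of the 9 was 0.040.

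**Figure D1:**
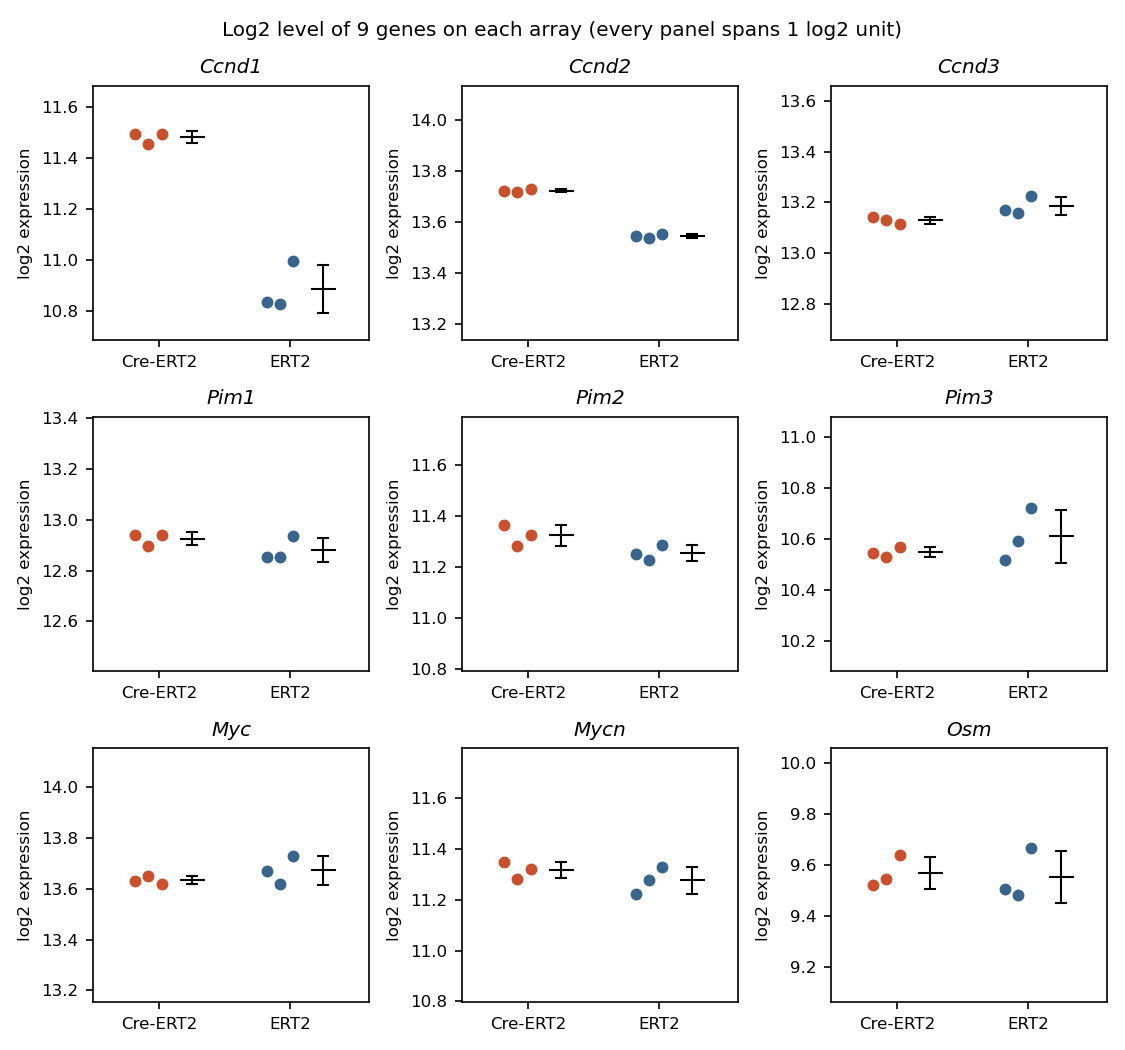
Log2 expression of the 9 genes on each array, 3 Cre-ERT2 arrays (orange) left of 3 ERT2 arrays (blue), with the mean and SD of each group as a black bar. Every panel spans 1 log2 unit. Ccnd1 and Ccnd2 lie higher on all Cre-ERT2 arrays, and the 3 PIM kinase genes, Myc, Mycn and Osm overlap between the groups.

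Ccnd1 encodes cyclin D1, which normal lymphocytes hold at low levels compared with the other D cyclins. Its log2 level was 11.50, 11.46 and 11.49 on the Cre-ERT2 arrays, against 10.83, 10.83 and 11.00 on the ERT2 arrays. The groups did not overlap, and the lowest Cre-ERT2 value stood well above the highest ERT2 value, that of ERT2 replicate 3. The means were 11.48 ± 0.0231 in Cre-ERT2 and 10.89 ± 0.0953 in ERT2 (SD, n = 3 each). Ccnd1 thus rose by 0.60 on the log2 scale (SE 0.0519, 95% interval 0.48 to 0.72, limma adjusted p = 0.000267). It was the 98th largest rise among the 19938 genes. Without ERT2 replicate 3 the log2 fold change was 0.65 (limma adjusted p = 0.000424).

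Ccnd2 encodes cyclin D2, which BCR-ABL1 and cytokine signals induce in lymphoid cells. Its log2 level was 13.72, 13.72 and 13.73 on the Cre-ERT2 arrays, against 13.55, 13.54 and 13.55 on the ERT2 arrays. The change was small but the replicates were very close, with SDs of 0.00505 in Cre-ERT2 and 0.00719 in ERT2. Ccnd2 rose by 0.18 on the log2 scale (SE 0.0348, 95% interval 0.098 to 0.26, limma adjusted p = 0.0181, n = 3 per group). The standard error is that of limma, which draws the residual SD of each gene towards that of all genes and is therefore wider than these SDs alone would give. The call was lost without Cre-ERT2 replicate 1 (limma adjusted p = 0.0689), Cre-ERT2 replicate 2 (0.0786), ERT2 replicate 1 (0.0792) or ERT2 replicate 2 (0.0603), although the log2 fold change stayed between 0.17 and 0.18 with any 1 array left out. It was also lost after median centring of the arrays (limma adjusted p = 0.0571).

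Ccnd3 encodes cyclin D3, which mouse pre-B cells need for their expansion. It had 13.14, 13.13 and 13.12 on the Cre-ERT2 arrays, against 13.17, 13.16 and 13.23 on the ERT2 arrays. All Cre-ERT2 values were the lower ones, as they were for 20.3% of all genes. At -0.057 (SE 0.0378, limma adjusted p = 0.402), its change lay close to the median over all genes, and its 95% interval ran from -0.14 to 0.030.

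Pairs of D cyclins were compared on the same arrays. The per-array log2 difference between Ccnd1 and Ccnd3 was larger by 0.65 in Cre-ERT2 than in ERT2, that between Ccnd2 and Ccnd3 by 0.23, and that between Ccnd1 and Ccnd2 by 0.42. In each of these 3 pairs the groups did not overlap. The two-sided exact permutation test gave p = 0.1 for each, the smallest value that 3 arrays against 3 allow, and an adjusted p of 0.14 over the 7 pairs compared within families. These differences therefore did not pass a threshold of 0.05, which this design cannot reach for a single value. Ccnd2 and Ccnd3, like Myc, sit at levels close to the top of the array's range, where the highest value of any probe set was 14.6.

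**Figure D2:**
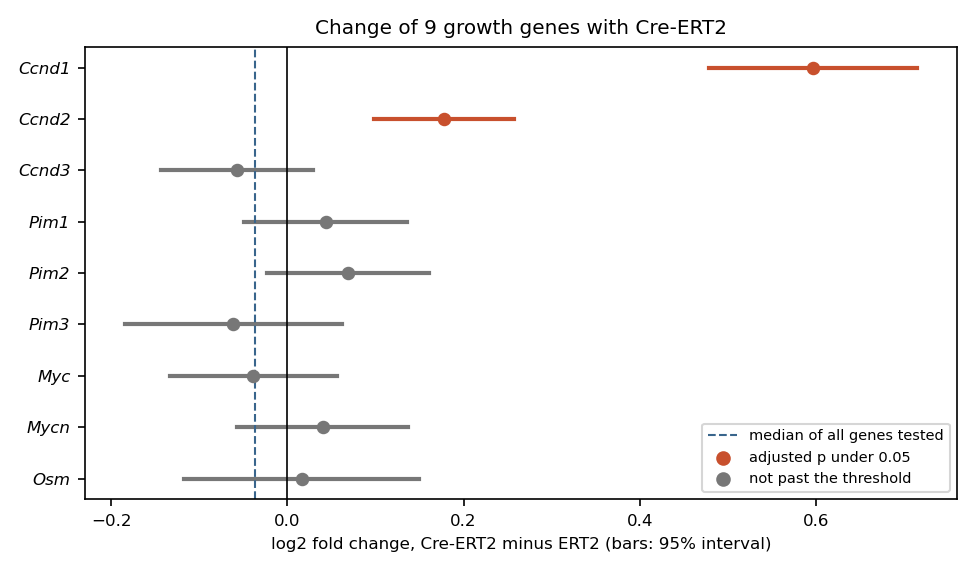
Log2 fold change of each of the 9 genes, Cre-ERT2 minus ERT2, with its 95% interval from limma. Orange marks the 2 genes past an adjusted p of 0.05, Ccnd1 at 0.60 and Ccnd2 at 0.18, and the dashed line marks the median of all genes, -0.0369.

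Pim1 encodes the founding PIM kinase, a standard readout of STAT5 activity. Its log2 level was 12.94, 12.89 and 12.94 on the Cre-ERT2 arrays, against 12.85, 12.85 and 12.94 on the ERT2 arrays. The highest ERT2 value fell among the Cre-ERT2 values, so the groups overlapped. Pim1 was at 0.044 on the log2 scale (SE 0.0406, limma adjusted p = 0.554), with a 95% interval of -0.049 to 0.14.

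Pim2, whose kinase maintains cap-dependent translation and survival in blood cancers, had 11.37, 11.28 and 11.32 on the Cre-ERT2 arrays, against 11.25, 11.23 and 11.29 on the ERT2 arrays. Only the lowest Cre-ERT2 array lay below the highest ERT2 array. The log2 fold change was 0.069 (SE 0.0403, limma adjusted p = 0.344), with a 95% interval of 0.984-fold to 1.12-fold. Pim3, the third member of the family, had 10.55, 10.53 and 10.57 on the Cre-ERT2 arrays, against 10.52, 10.59 and 10.72 on the ERT2 arrays. Its ERT2 arrays spread the more widely, with an SD of 0.0201 in Cre-ERT2 and 0.103 in ERT2, and the Cre-ERT2 values lay inside their range. Its log2 fold change was -0.061 (SE 0.0540, limma adjusted p = 0.527), and without ERT2 replicate 3 it was -0.0056.

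Within the PIM family the change of Pim1 was 0.025 below that of Pim2 on the log2 scale (exact permutation p = 0.3, adjusted p = 0.3). Against Pim3 the change was larger by 0.10 for Pim1 and by 0.13 for Pim2 (exact permutation p = 0.1 each, adjusted p = 0.14). In the pairs with Pim3 the groups did not overlap, as in the pairs of D cyclins, while for Pim1 and Pim2 they overlapped. How often pairs of other genes lie apart was not tested. An exact p of 0.1 is the smallest that 3 arrays against 3 allow, so none of these 3 pairs could pass the threshold.

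Myc was at 13.63, 13.65 and 13.62 on the Cre-ERT2 arrays, against 13.67, 13.62 and 13.73 on the ERT2 arrays. The Cre-ERT2 values lay within the ERT2 range. Its log2 fold change was -0.039 (SE 0.0417, limma adjusted p = 0.610), with a 95% interval of -0.13 to 0.056. Mycn, which precursor B cells also express, had 11.35, 11.28 and 11.32 on the Cre-ERT2 arrays, against 11.22, 11.28 and 11.33 on the ERT2 arrays. These groups overlapped as well, and Mycn was at 0.040 on the log2 scale (SE 0.0426, limma adjusted p = 0.603). The change of Mycn exceeded that of Myc by 0.079 on the log2 scale, which did not pass the test (exact permutation p = 0.2, adjusted p = 0.233). The smallest p that this test allows here is 0.1.

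Osm encodes oncostatin M, a cytokine of the interleukin 6 family whose gene STAT5 induces directly. It was at 9.52, 9.55 and 9.64 on the Cre-ERT2 arrays, against 9.51, 9.48 and 9.67 on the ERT2 arrays. Replicate 3 was the highest array in both groups, and the groups overlapped. Its change of 0.016 (SE 0.0584, limma adjusted p = 0.894) turned to -0.0085 after quantile normalization, and it also turned in 3 of the 6 leave-outs, so it has no settled direction.

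ERT2 replicate 3 was the highest of the ERT2 arrays for all 9 genes, whereas it was the highest for 48.0% of all genes. Among the Cre-ERT2 arrays, replicates 1 and 3 were each the highest for 4 of the 9 genes and replicate 2 for 1. Without ERT2 replicate 3, both Ccnd1 (0.65) and Ccnd2 (0.18, limma adjusted p = 0.0410) were called.

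The genes whose values over the 6 arrays were most like those of Ccnd1, among 3211 genes that spanned at least 0.3 on the log2 scale, were Dnase1l3, a secreted DNase (Pearson r = 0.999), and Slc29a3, a nucleoside transporter of lysosomes (r = 0.998). Dnase1l3 rose by 0.61 (SE 0.0506) and Slc29a3 by 0.48 (SE 0.0438). For Ccnd2 they were the small GTPase gene Rhoq and the lipid phosphatase gene Plpp3, each with an r above that of any other gene searched (0.9997 and 0.9995), and they rose by 1.06 (SE 0.0379) and 0.73 (SE 0.0368). These correlations share the 6 arrays and their 2 groups and are given as a description.

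Of 19 measured genes of the D cyclin-CDK4/6-RB axis, 0 rose, 3 fell and 16 did not pass, where 4.05% of all genes were called higher and 2.98% lower. The median log2 fold change was -0.086. The number called was 5 with array weights, 1 after quantile normalization or median centring and 0 to 2 with 1 array left out. Over all genes 1402 were called in the main fit, 3339 with array weights, 1156 after quantile normalization and 1066 after median centring. With 1 array left out the range over all genes was 743 to 1341. Ccne1, the cyclin that takes over from D cyclins late in G1, had 11.73, 11.63 and 11.69 on the Cre-ERT2 arrays, against 11.95, 11.90 and 11.93 on the ERT2 arrays. It fell by 0.24 (SE 0.0415, limma adjusted p = 0.0103), a call that ended without Cre-ERT2 replicate 2 (adjusted p = 0.0525) or ERT2 replicate 1 (0.0541). E2f4, a repressive E2F, fell by 0.18 (SE 0.0395) and Rbl1, which encodes the RB relative p107, by 0.15 (SE 0.0365). Leaving out any array except ERT2 replicate 2 ended the call of E2f4 (limma adjusted p up to 0.124), and leaving out any array ended that of Rbl1 (up to 0.163).

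The kinase partners were close to level. Cdk4 was at -0.0087 (SE 0.0356, limma adjusted p = 0.907), a sign that turned after cyclic loess, and Cdk6 at -0.073 (SE 0.0493, adjusted p = 0.410). Of 12 genes for D cyclin turnover limma called 0, where 7.03% of all genes were called, and with array weights 1. At an unadjusted p under 0.05 there were 4, and the share of all genes at that threshold is not given here. The ubiquitin ligase subunits Fbxo31 and Fbxo4 were at -0.14 and -0.13. Of 19 proliferation markers 0 rose and 2 fell, where 4.05% of all genes were called higher and 2.98% lower. The 2 were the nucleotide enzymes Tk1 (-0.18, SE 0.0393) and Rrm2 (-0.18, SE 0.0355). The number called was 6 with an intensity trend, 8 with array weights, 4 without the dimmest 30% of genes, and 0 to 3 with 1 array left out. The calls over all genes moved as well, from 1402 of 19938 to 1823 with an intensity trend and 3339 with array weights. Without the dimmest 30% of genes they were 1750 of 13956. All 19 markers were below 0, with a median of -0.10, where 68.2% of all genes were below 0. After quantile normalization or cyclic loess 18 of the markers were, with the median of all genes at -0.0404 and -0.0112. Tk1 was no longer called without any of the arrays except Cre-ERT2 replicate 3 (limma adjusted p up to 0.121), and the call of Rrm2 held only where a replicate 3 was the array left out (otherwise up to 0.0948).

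MAX, the MXD proteins and MNT form the network through which MYC binds DNA or is opposed. Of 11 genes of the MYC-MAX-MXD network limma called 0, where 7.03% of all genes were called, so that count is near the background. With array weights 2 were called, as were 3339 of all 19938 genes. At an unadjusted p under 0.05 there were 5. The share of all genes at an unadjusted p under 0.05 is not given here, so such counts have no background. Max was at -0.040 (SE 0.0394), the MYC antagonist Mxd1 at 0.15 (adjusted p = 0.116) and the antagonist Mnt at -0.098 (adjusted p = 0.147). Of 11 genes for MYC protein turnover and cofactors limma called 0 (2 at an unadjusted p under 0.05), and the 2 of smallest p were the ubiquitin ligase subunit Skp2 (-0.15, adjusted p = 0.0894) and the deubiquitinase Usp36 (-0.11, adjusted p = 0.142). With an intensity trend, and with array weights, Skp2 was called (adjusted p = 0.0351 and 0.0210).

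Of 20 MYC target genes 0 rose and 1 fell, where 4.05% of all genes were called higher and 2.98% lower. At an unadjusted p under 0.05 there were 7, and the share of all genes at that threshold is not given here. The median of the list, -0.049, was near that of all genes, but 18 of the 20 were below 0, where 68.2% of all genes were. After cyclic loess, which moved the median of all genes from -0.0369 to -0.0112, 15 of the list were below 0. The number called was 6 with an intensity trend and 0 after each of the 3 scalings. Over all genes it was 1402 in the main fit, 1823 with an intensity trend and 1066 to 1417 after the scalings. The member that fell was Shmt1, an enzyme of folate metabolism, by 0.18 (SE 0.0438, limma adjusted p = 0.0472), and its call was lost whichever array was left out (adjusted p up to 0.164). The polyamine enzyme Odc1, chosen after its values were seen, was at 0.22 (adjusted p = 0.0805) and was the highest of the list. It was called higher with an intensity trend (adjusted p = 0.0267), with array weights (0.0190) and with the dimmest 30% of genes left out (0.0455).

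Of 19 genes listed here as PIM kinase substrates, 0 rose and 3 fell, with a median of -0.051. Over all genes 4.05% were called higher and 2.98% lower. Mybl1, a MYB family factor, fell by 0.31 (SE 0.0499, limma adjusted p = 0.00734), Foxo1, a forkhead factor of B cell precursors, by 0.26 (SE 0.0542, adjusted p = 0.0240), and Eif4ebp1, which restrains the cap-binding factor eIF4E, by 0.18 (SE 0.0357, adjusted p = 0.0196). The Mybl1 call held with any array left out (up to 0.0335). Foxo1 was called only in the absence of Cre-ERT2 replicate 3 among the leave-outs (elsewhere up to 0.102), and the call of Eif4ebp1 held only where a replicate 3 was the array left out (otherwise up to 0.0974).

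Other genes that STAT5 is known to regulate were read as a list. Of 15 measured, 7 rose, 1 fell and 7 did not pass, with a median of 0.14, against 4.05% higher and 2.98% lower over all genes. The list was chosen with earlier results of these data known, so this contrast is a description, and no set test was run. Cish, the feedback inhibitor that STAT5 induces, had 11.09, 11.11 and 11.14 on the Cre-ERT2 arrays, against 10.56, 10.56 and 10.67 on the ERT2 arrays. It rose by 0.52 on the log2 scale (SE 0.0447, limma adjusted p = 0.00026), with a 95% interval of 0.41 to 0.62, against upper ends of 0.14 for Pim1, 0.15 for Osm and 0.056 for Myc. The difference between these genes was not tested.

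Il2ra, the interleukin 2 receptor chain CD25, rose by 0.94 (SE 0.0567), and the feedback gene Socs3 and the phosphatase gene Dusp4 by 0.33 each (SE 0.0506 and 0.0568). Averaging its 2 probe sets gave Socs3 0.19, which was not called (limma adjusted p = 0.0814). The remaining called members, chosen after their values were seen, were Bcl2 (0.25), Socs2 (0.21), Socs1 (0.21) and the RAS inhibitor Spred1, which fell by 0.31. Socs1 was no longer called without any of the arrays except Cre-ERT2 replicate 2 (adjusted p up to 0.143). On a map of per-array deviations, Ccnd1, Cish and Il2ra stood apart between groups while the PIM kinase genes did not.

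**Figure D3:**
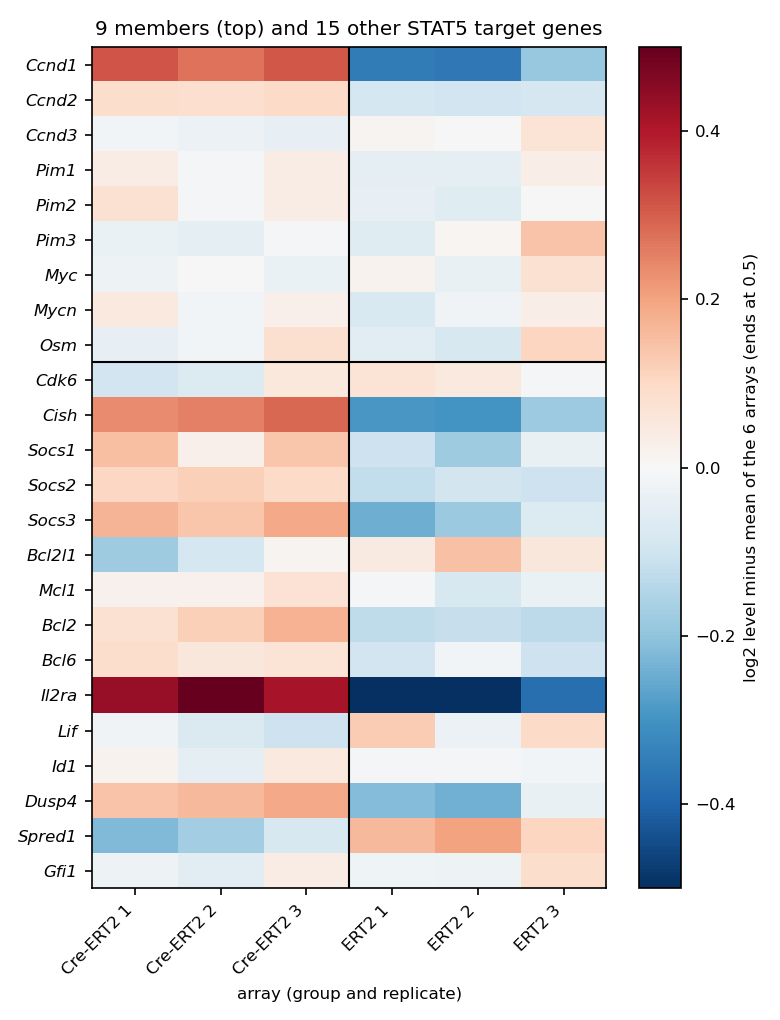
Log2 level of each gene on each array minus the mean of the 6 arrays, Cre-ERT2 arrays left of ERT2 arrays, for the 9 genes (top) and 15 other STAT5 target genes (bottom). Colours end at 0.5, which Il2ra exceeds; Ccnd1 changes by 0.60, Cish by 0.52 and Pim1 by 0.044.

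The genes of the STAT5 route itself were mixed. Of 15 measured, 2 rose, 1 fell and 12 did not pass, where 4.05% of all genes were called higher and 2.98% lower. The median of -0.0092 turned to 0.0079 after quantile normalization. Jak2, the kinase of cytokine receptors, rose by 0.27 (SE 0.0458, limma adjusted p = 0.00980) and the receptor kinase Flt3 by 0.56 (SE 0.0396), while Il7r, the interleukin 7 receptor chain, fell by 0.60 (SE 0.0372). Stat5a was at -0.036 (adjusted p = 0.662) and Stat5b at 0.14 (adjusted p = 0.127; 0.0233 with array weights).

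The following sequences show the motif TTCNNNGAA, the shared core of STAT5 and BCL6 sites, near the start of STAT5 target genes, and 1 motif CACGTG, the E-box that MYC and MAX bind, near a start of Pim1. They are shown to set Cish and Socs3, which rose, and Bcl6, which did not pass, beside Pim1. They come from RefSeq on GRCm38.p6, with the motif in capitals, in windows of 250 bases before to 50 bases after each annotated start. The stretches are Cish at chr9:107296654-107296683 (+), Socs3 at chr11:117969502-117969530 (-), Bcl6 at chr16:23988952-23988980 (-) and Pim1 at chr17:29493015-29493044 (+).
Cish: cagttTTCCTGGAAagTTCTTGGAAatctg
Socs3: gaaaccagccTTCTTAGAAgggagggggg
Bcl6: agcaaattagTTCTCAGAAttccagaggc
Pim1: gtaaacaggaatCACGTGgtctgaaaccag
The Cish stretch holds 2 matches, the first of which begins at base 1 of the annotated transcript, that of Socs3 begins 154 bases before the start, and that of Bcl6 118 bases before. Both motifs read the same on either strand and do not overlap here. TTCNNNGAA occurred in 8.30% of 32851 windows of all genes, and CACGTG in 7.15%. Windows were available for 5 of the 9 genes (Ccnd3, Pim1, Pim2, Pim3 and Mycn, 7 windows). There was none for Ccnd1 and Ccnd2, which rose, or for Myc and Osm. Of the 7 windows, 0 held TTCNNNGAA and 1, at a downstream start of Pim1, held CACGTG, 58 bases before that start. Of 16 windows of 12 other STAT5 target genes, 4 held TTCNNNGAA, in Cish, Socs3 and Bcl6, and 2 held CACGTG, in Bcl6 (the window shown, 60 bases before its start) and Cdk6 (220 bases before). A window at another start of Bcl6, not shown, held 3 matches of TTCNNNGAA. The windows of Il2ra, Bcl2 and Socs1, which also rose, held no TTCNNNGAA. A match is a description of letters in a short window and not a site of binding.

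**Figure D4:**
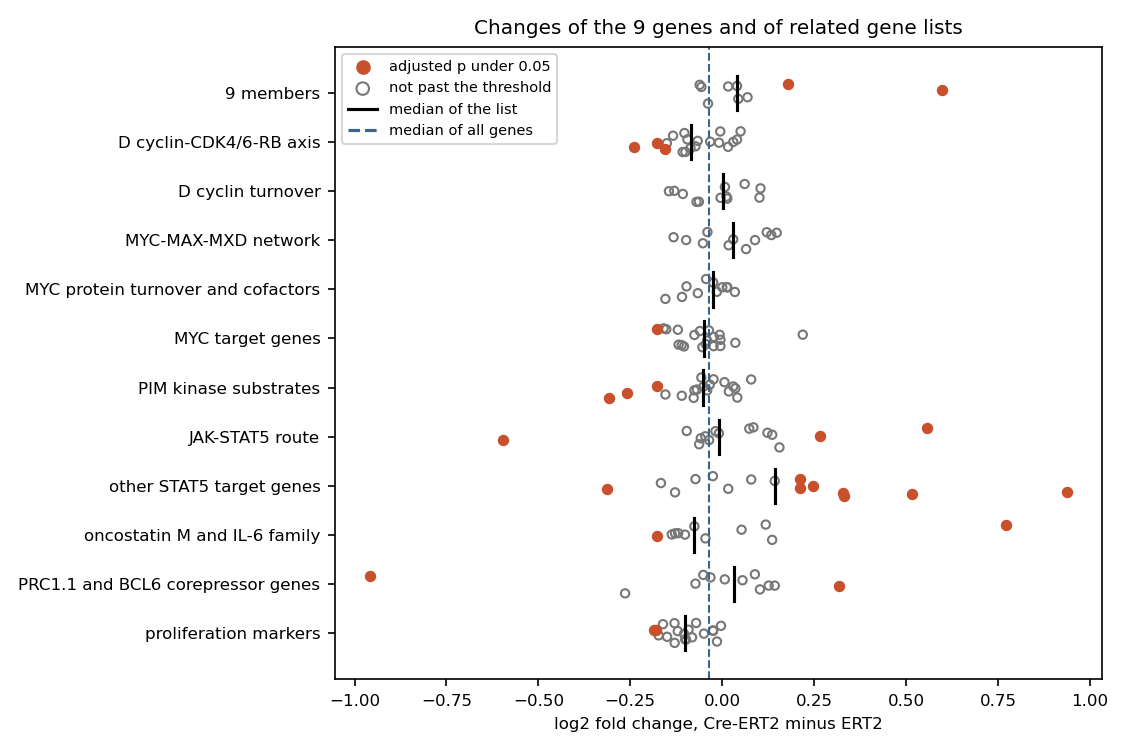
Log2 fold change, Cre-ERT2 minus ERT2, of every measured gene of the 9 members and of 11 related lists, with filled points past an adjusted p of 0.05. Black bars are list medians, 0.14 for the other STAT5 targets and -0.10 for the proliferation markers, and the dashed line is the median of all genes, -0.0369.

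The relatives and receptors of oncostatin M were read from 11 genes for ligands and receptor chains of the interleukin 6 family. Of these, 1 rose and 1 fell, where 4.05% of all genes were called higher and 2.98% lower. Their median was -0.076. Lifr, the receptor of leukaemia inhibitory factor, had 10.56, 10.66 and 10.63 on the Cre-ERT2 arrays, against 9.90, 9.86 and 9.78 on the ERT2 arrays. It rose by 0.77 (SE 0.0466, limma adjusted p = 3.8e-05), more than any of the 9 genes. The cytokine gene Il6, the member that fell, was at -0.18 (SE 0.0381), and no leave-out kept its call (adjusted p up to 0.0906). Its log2 levels, 4.80 to 5.04, lay far below the array medians of 8.61 to 8.68. With an intensity trend it was not called (limma adjusted p = 0.152), so its fall is not secure. The specific receptor Osmr was at -0.046 (adjusted p = 0.614) and the shared signalling chain Il6st at 0.14 (adjusted p = 0.127). Their group means, 7.29 to 7.43, also lay below the array medians.

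Among 12 genes of the PRC1.1 complex and BCL6 with its corepressors, 1 fell, Bcor, and 1 rose, its paralogue Bcorl1, at 0.32 (SE 0.0433). Bcl6 itself was at 0.14 (SE 0.0401, limma adjusted p = 0.0742), and it passed with array weights (0.0201) and with the dimmest 30% of genes left out (0.0384). Counted once each, the 158 measured genes of these 11 lists held 11 that rose and 13 that fell, 15.2% of them, against 7.03% of all genes. Those that fell include Bcor, the targeted gene, and the lists were chosen with earlier results of these data known. Without the dimmest 30% of genes, 1750 of 13956 genes were called. The part of expression level in the share of the lists was not tested.

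Markers of B cell precursors were read to check the label. Their mean log2 level was 11.91 to 11.94 on the Cre-ERT2 arrays, against 11.84 to 11.88 on the ERT2 arrays, over 13 genes. Of these, 2 rose, terminal transferase Dntt (0.86, SE 0.0741) and Cd24a (0.19, SE 0.0468), and Rag1 fell by 0.38 (SE 0.0415). Over all genes 4.05% were called higher and 2.98% lower. Cd24a kept its call in 1 of the 6 leave-outs (adjusted p up to 0.171). Over 15 myeloid markers the mean log2 level was 8.14 to 8.17 in Cre-ERT2 and 8.16 to 8.19 in ERT2. Of these, 5 were above 0 and 10 below, with a median of -0.066, where 68.2% of all genes were below 0. Lyz2 rose by 0.45 (SE 0.0662) and Fcgr1 by 0.35 (SE 0.0766), Mrc1 fell by 0.54 (SE 0.0446), and Cd68 was at 0.055. The Fcgr1 call ended without replicate 1 or 2 of Cre-ERT2 or replicate 2 or 3 of ERT2 (adjusted p up to 0.112).

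Over 12 T and NK cell markers the mean log2 level was 8.06 to 8.07 in Cre-ERT2 and 8.07 to 8.15 in ERT2. Of these, 9 were below 0. There was 1 called higher and 1 lower, against 4.05% and 2.98% of all genes. Cd2 rose by 0.33 (SE 0.0419). Its group means, 11.74 in Cre-ERT2 and 11.40 in ERT2, lay far above those of the next brightest, Cd3e (8.51 and 8.54). Whether Cd2 marks T or NK cells here was not tested. Ncr1 fell by 0.23 (SE 0.0410) and Cd3e was at -0.023, with the Ncr1 call lost without Cre-ERT2 replicate 1 (limma adjusted p = 0.0529). Of 12 stromal and endothelial and 7 erythroid and megakaryocyte markers limma called 0 (2 and 1 at an unadjusted p under 0.05). Over all genes 7.03% were called at an adjusted p under 0.05, and the share at an unadjusted p under 0.05 is not given here. Pecam1 was at 0.13 (adjusted p = 0.0762, and 0.0319 with array weights, 0.0474 after cyclic loess and 0.0388 with the dimmest 30% of genes left out), Col1a2 at -0.10 (0.0302 with array weights), Col1a1 at -0.083, Slc4a1 at -0.14 (0.0282 with array weights), Pf4 at -0.076 and Itga2b at -0.041. The part of other cells in the rise of Ccnd1 and Ccnd2 was not tested.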

How the data were processed

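RNA from 6 samples of Bcor fl/Y leukaemia cells (3 Cre-ERT2, 3 ERT2) was measured on Affymetrix arrays. The deposited values are log2 expression per probe set, and per the submitters' processing notes RMA and Partek 6.5 were used, with no role or order stated. The genome build was not given in the sources used here. Of 35556 probe sets, 21789 had 1 gene symbol in the platform annotation, 1621 had several and 12146 were not listed. Gene identifiers of 21698 matched RefSeq genes of GRCm38.p6. For each gene the brightest probe set with 1 symbol was kept. Cre-ERT2 minus ERT2 was tested over 19938 genes with limma 3.58.1 in R 4.3.3 (with data.table at version 1.17.8), without a trend, with Benjamini-Hochberg adjustment and calls under 0.05. The median residual SD was 0.0587. Pairs of members within a family were compared by a two-sided exact permutation test.

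Genes were named by rule: all members and direct partners, called members of each list (the top 4 by size where more than 5 were called, or the 2 of smallest p where none was), the 2 brightest markers of other cell types, and the 2 genes most like each called member. The members and lists were chosen with earlier results of these data known. Alternatives were a replicate block, an intensity trend, array weights, 3 scalings, a filter on dim genes, probe set means, an adjusted p of 0.1 and each array left out. The fit was tested on simulated data. Plots used Python 3.11.15, pandas 2.3.3 and matplotlib 3.10.9.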

Additional observations from a re-analysis of the deposited data

How the results depend on the processing

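Ccnd1 kept its direction and its call under all 15 alternatives, with a log2 fold change from 0.57 to 0.65, as did Bcor (-0.99 to -0.92). Ccnd2 kept its direction, and its call was lost with the replicate block (0.18, limma adjusted p = 0.0672), after median centring (0.18, adjusted p = 0.0571) and without 4 of the arrays (0.17 to 0.18). The number of members called was then 1, and it ranged from 1 to 2 with 1 array left out. The 6 uncalled members other than Osm kept their sign. Osm was at -0.00846 after quantile normalization and from -0.0193 to 0.0742 with 1 array left out. Cdk4 turned to 0.000584 and Cd3e to 0.00376 after cyclic loess, and with 1 array left out Cdk4 ranged from -0.0169 to 0.00227, Cd3e from -0.0915 to 0.0249 and Osmr from -0.0712 to 0.00312.

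The count of called genes, 1402 (808 higher, 594 lower), was 805 with the replicate block (259 lower), 3339 with array weights (1315 higher, 2024 lower), 2271 at an adjusted p of 0.1 (1190 lower) and from 743 to 1341 with 1 array left out (513 to 713 higher, 214 to 628 lower). After median centring 394 were lower. The called share that was higher was 57.6%, against 67.9% after cyclic loess and 39.4% with array weights. In the pathway lists 24 genes were called, 49 with array weights and 14 to 22 with 1 array left out. Same-numbered arrays did not deviate together (correlations across genes 0.0506, -0.0946 and -0.260), so the replicate numbers were not taken to pair the samples. The block also ended the calls of E2f4, Rbl1, Shmt1, Foxo1, Eif4ebp1, Tk1, Rrm2, Il6, Cd24a and Parp11. Differences within families come from no fitted model, so the block, trend, weights, dim filter and threshold give them no other value. Under scaling and left-out arrays all 7 kept their sign. With 3 arrays per group, changes as small as those of the uncalled members were within the error.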

Other observations

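The genes next to the 9 members were read as well, a choice made after the members' values were seen. In the order of GRCm38.p6, the 2 nearest measured genes on each side of every member gave 36 neighbours, of which 2 rose and 1 fell (7.03% of all genes were called). None of the 4 neighbours of Ccnd1 was called, and their log2 fold changes ran from -0.12 to 0.045. Beside Ccnd2, Parp11, a mono-ADP-ribosyltransferase gene, rose by 0.20 (limma adjusted p = 0.0499), and no leave-out kept this call (adjusted p up to 0.137). Beside Pim1, which was at 0.044, Fgd2, an exchange factor for CDC42, rose by 0.35 (adjusted p = 0.0027). Beside Mycn, Cyria, which binds the GTPase RAC1, fell by 0.33 (adjusted p = 0.00102). The neighbours of Myc, among them the noncoding RNA gene Pvt1, lay between -0.070 and 0.071.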
